A study of Mus musculus with 96 samples.

Results

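Microglia, the macrophages that live in the brain, were compared between old and young wild-type mice after abdominal surgery, in the hippocampus at 48 h. The members are the 13 libraries of the 48 h hippocampus table whose titles give surgery: 9 from old animals (20 to 22 months) and 4 from young animals (3 to 5 months), of 96 libraries in all. Each library was made from 1000 cells, sorted as Fcrls+ CD11b+ and without Ly6C, with the Smart-seq2 protocol. Further libraries served for comparison: 8 old and 4 young control libraries of the same region and time, the hemisphere libraries of the same 13 surgery animals, and 7 old and 4 young surgery libraries of the hippocampus at 6 h, from other animals. All animals were wild type. The labels name neither the sex, nor what the control animals underwent, nor the anaesthetic.

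Resting microglia survey the tissue through purinergic and chemokine receptors, and their identity genes include P2ry12 and Tmem119. With age and in disease they can take on a programme led by Apoe, Clec7a, Cst7 and Cd9, together with antigen presentation and interferon responses. Surgery in the periphery is used as a model of inflammation that reaches the brain from outside, and the hippocampus, which serves memory, is the region most studied in it.

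The libraries were shallow. Total estimated counts ran from 2535962 to 3299071 in the old surgery libraries and from 2607832 to 3778939 in the young ones. The 16 gene models that each took at least 0.5% of the table's counts together held 74.3% to 80.2% of the counts in old and 73.3% to 78.5% in young libraries (difference of means 3.16 percentage points, exact permutation p = 0.0266, two-sided, BH-adjusted 0.0797 over 6 library measures). The smallest p that this design allows is 0.0014. Outside those models 502376 to 774282 counts were left in old and 588937 to 968205 in young libraries. The mitochondrial share was 1.02% ± 0.15 in old and 0.791% ± 0.063 in young libraries (SD, n = 9 and 4, exact permutation p = 0.0182, adjusted 0.0797). The first principal component, 14.3% of the variance, placed young replicates 2, 3 and 4 and old replicates 2 and 3 on one side and the other 8 libraries, young replicate 1 among them, on the other. The scaling factors (TMM) ran from 1.04 to 1.20 on the first side and from 0.889 to 1.07 on the second. Young animals had sort numbers from 75 to 90 in the library names, and 6 of the 9 old animals lay above that range. Reads of Y-linked genes were found in all 13 libraries, so no difference in sex was seen between the groups.

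The sorted cells carried the microglial identity. The 24 homeostatic genes, the group that defines resting microglia, summed to 13223 to 17809 CPM in old and 12915 to 17852 CPM in young libraries, where CPM are counts scaled to a TMM-normalized total of 1e+06. Cst3 made up 33.2% of that sum. Tmem119, a microglial membrane protein, stood at 680 ± 83.7 CPM in old and 607 ± 113 CPM in young libraries (SD, n = 9 and 4). P2ry12, the purinergic receptor that senses ADP, stood at 590 ± 65.6 and 581 ± 75.2 CPM. Neither separated the groups (log2 fold change, old over young, 0.16 ± 0.15 and 0.02 ± 0.17, SE). Of the 24 homeostatic genes 0 were called by edgeR, 17 had a positive value (48.7% of all genes) and the median was 0.12 (0.055 to 0.22 over the other settings). Lag3, an inhibitory receptor of the CD4 family that microglia also carry, was the member with the smallest p. It stood at 101.7, 84.2, 57.0 and 63.5 CPM in the 4 young libraries and between 102.2 and 160 CPM (median 132) in the old ones, which all lay above the young (0.73 ± 0.16, edgeR BH 0.0711). DESeq2 called it (BH 0.0021). In controls the median of the homeostatic list was 0.03, with 1 member called higher by edgeR. After surgery the median was -0.11 in the hemisphere (6 of 24 positive) and -0.19 in the hippocampus at 6 h (4 of 24 positive).

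Few genes separated the ages. Of 11985 genes tested, edgeR's quasi-likelihood test called 4 higher (0.0334%) and 6 lower (0.0501%) in old animals at a Benjamini-Hochberg (BH) adjusted p below 0.05, together 0.0834% of the genes. An unadjusted p below 0.05 was found for 1352 genes (11.3%), 5.15% of all genes higher and 6.13% lower. DESeq2 called 40 of 11969 genes (0.334%; 0.226% higher, 0.109% lower), among them all 10 that edgeR called. Of all genes tested, 67 had every old library above every young one (0.559%) and 41 the reverse (0.342%). Of the 10 genes, Lsp1, Cd9 and Upk1b came from the rule for named genes, and the other 7 were picked because they were called.

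Of the 4 genes called higher, 2 encode tetraspanins, proteins with 4 membrane passes that organise receptors in the plane of the membrane. Cd9 (chr6:125460266-125494791) is a tetraspanin of many immune cells and belongs to the disease-associated microglia list. Its levels were 93.1, 87.8, 81.3 and 98.8 CPM in the young libraries and 131 to 181 CPM, with a median of 159, in the old ones. The lowest old library lay above the highest young one, and the log2 fold change was 0.80 ± 0.15 (SE, edgeR BH 0.0143). Upk1b (chr16:38773184-38800328), a tetraspanin first known from the urothelium, stood at 21.2, 17.4, 25.0 and 22.1 CPM in young and at 35.8 to 75.4 CPM (median 52.9) in old libraries. The groups did not overlap (1.34 ± 0.27, edgeR BH 0.0417), and the old libraries spread more widely than the young.

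Lsp1 (chr7:142460809-142494867) encodes an actin-binding protein of leukocytes that takes part in their movement. It rested on 21 to 59 counts per young library and 48 to 86 per old one. Its levels were 11.8, 14.04, 7.30 and 9.97 CPM in young animals and 21.5 to 29.1 CPM (median 24.7) in old ones, so that every old library lay above every young one (1.21 ± 0.19, edgeR BH 0.00404). Naalad2 (chr9:18321951-18402995), a membrane peptidase related to the enzyme that releases glutamate from N-acetylaspartylglutamate, stood at 3.14, 3.09, 2.78 and 2.72 CPM in young and 7.72 to 21.0 CPM (median 11.5) in old libraries. It had the largest fold change of the 4 genes (2.04 ± 0.41, edgeR BH 0.0417), from 8 to 13 counts per young library, and the groups did not overlap. Lsp1, Cd9 and Naalad2, like Harbi1 and Tmem181b-ps below and P2ry12, Fkbp5 and Cdkn1a, each overlap another gene model on the opposite strand, and the labels do not say whether reads were counted by strand.

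Of the 6 genes called lower in old animals, 2 are protein-coding. Rgs7bp (chr13:104945904-105054930) encodes the protein that anchors RGS7-type regulators of G-protein signalling to the membrane. It stood at 5.10, 3.57, 6.95 and 6.35 CPM in young libraries and at 0.325 to 2.69 CPM (median 1.01) in old ones. That is 13 to 21 counts against 1 to 6 counts per library, without overlap (-2.15 ± 0.37, edgeR BH 0.00811). Harbi1 (chr2:91710852-91721545), a nuclease gene derived from a Harbinger transposon, was uneven. Its young values were 18.9, 26.2, 13.6 and 6.05 CPM, against 4.91 to 8.77 CPM in old libraries, so the groups overlapped through young replicate 4 (-1.35 ± 0.26, edgeR BH 0.0318).

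The other 4 genes called lower are gene models without an established protein. Gm42427 (chr5:44137980-44143271), a model that the annotation keeps as unclassified, had the smallest p of the comparison. It fell from 142, 105.2, 91.8 and 125 CPM in young to 41.2 to 63.1 CPM (median 47.8) in old libraries (-1.22 ± 0.17, edgeR BH 0.00145). Gm42031 (chr8:85125872-85132289), a long intergenic non-coding RNA, fell from 81.3, 97.6, 72.7 and 84.3 CPM to 25.3 to 44.6 CPM (median 30.7; -1.32 ± 0.22, edgeR BH 0.00528). Gm35279 (chr13:98994151-98997418), another long intergenic non-coding RNA, fell from 5.89, 8.80, 5.56 and 6.95 CPM to 0.325 to 3.44 CPM (median 1.68; -1.99 ± 0.32, edgeR BH 0.00404). It rested on 1 to 9 counts per old library. Tmem181b-ps (chr17:6438524-6467022), a transcribed pseudogene of a membrane protein family whose reads could be shared with its relatives, fell from 28.7, 21.2, 23.3 and 27.2 CPM to 9.43 to 16.1 CPM (median 11.3; -1.04 ± 0.21, edgeR BH 0.0437). In each of the 4 the old libraries all lay below the young. The gene model nearest to Tmem181b-ps, Dynlt1b at 2228 bp, also had a negative value (-1.23, edgeR BH 0.0711, DESeq2 BH 0.026). Whether they change together was not tested.

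**Figure D1:**
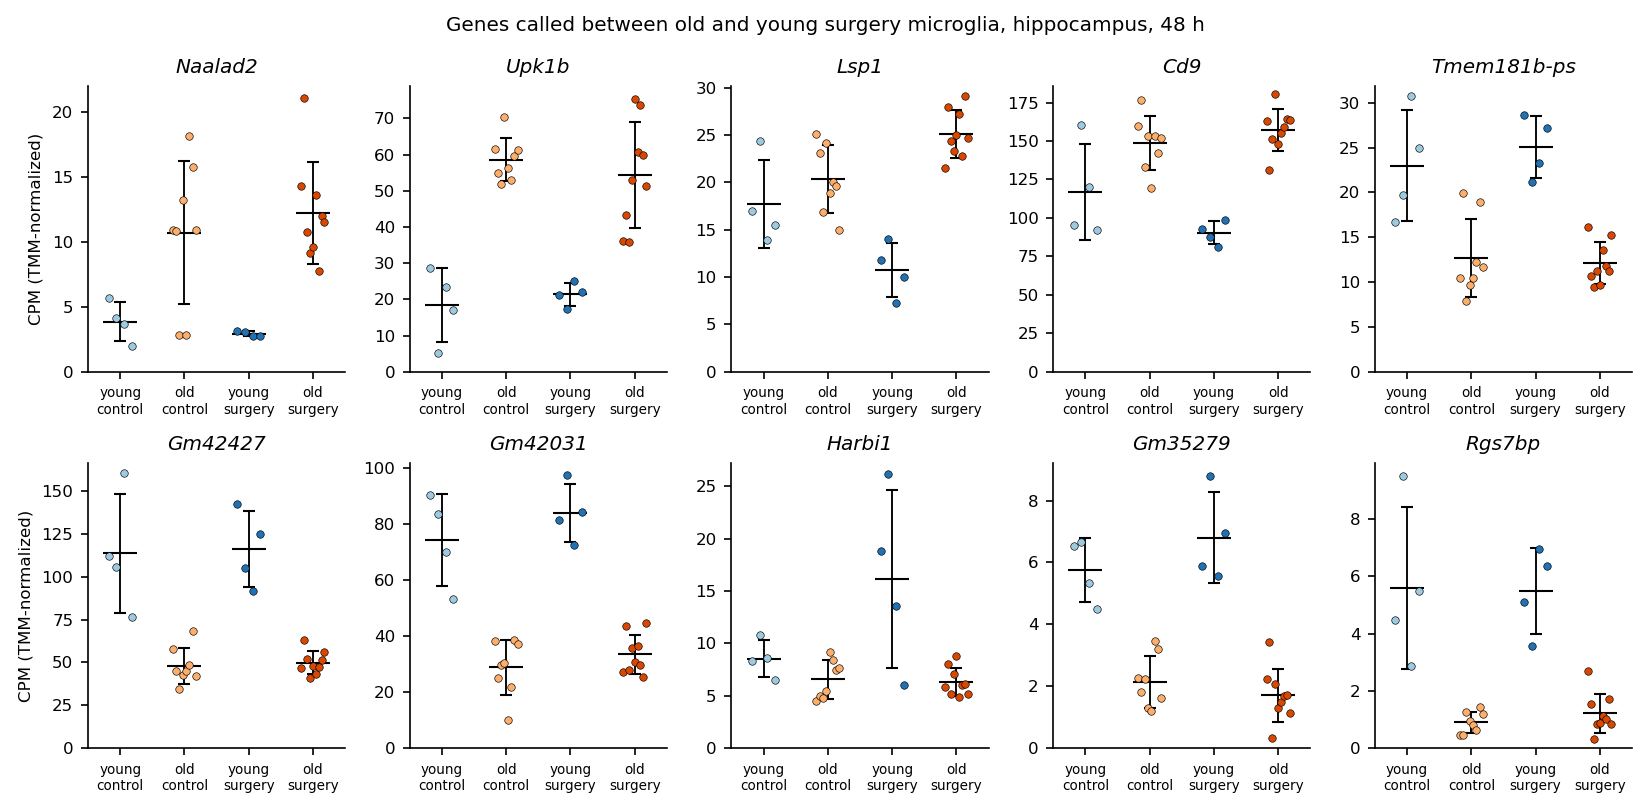
Levels of the 10 genes called between old and young surgery microglia of the hippocampus at 48 h, in CPM on linear axes from 0. Each point is a library, the horizontal bar is the group mean and the whiskers are 1 SD, for 4 young control, 8 old control, 4 young surgery and 9 old surgery libraries. Old and young surgery libraries do not overlap in 9 of the genes, and Harbi1 is the exception.

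The count depended on single libraries. It was 3 without young replicate 2, 4 without young replicate 3, 6 without old replicate 6 or 8, and between 7 and 15 without any other one. Lsp1 and Gm42427 were called in all 13 of these refits. Gm42031 and Gm35279 lost the call without young replicate 2, Rgs7bp without young replicate 3, and Cd9 without young replicate 2 or 3. Upk1b was called in 5 of the 13, Harbi1 in 6, Naalad2 in 4 and Tmem181b-ps in 1. With sort number as a covariate edgeR called 7 genes, and Cd9, Rgs7bp, Harbi1 and Naalad2 were not among them. limma voom did not call Upk1b, Harbi1 and Naalad2, and without the filter on low counts edgeR did not call Cd9, Harbi1 and Tmem181b-ps. With RLE size factors in place of TMM edgeR did not call Tmem181b-ps. With only the 3 old animals whose sort numbers lay within the young range, 0 genes were called.

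The same question was asked among the controls, where old and young control animals were compared. edgeR called 3 genes higher (0.025%) and 7 lower (0.0584%) there, 0.0834% of 11985. Gm42427 (-1.24 ± 0.18, edgeR BH 0.00167), Gm42031 (-1.37 ± 0.23, BH 0.004), Rgs7bp (-2.56 ± 0.40, BH 0.00347) and Upk1b (1.66 ± 0.28, BH 0.00432) were called in controls too. That fit shared its estimate of the spread with the surgery libraries. Controls fitted alone gave 0 calls, as did the fit with the replicate number as a block. For Gm35279 (-1.41), Tmem181b-ps (-0.86), Naalad2 (1.42) and Cd9 (0.34) the control values had the same sign without a call. Lsp1 stood at 0.19 ± 0.18 in controls, since young control libraries reached 13.9 to 24.4 CPM and overlapped with the old ones. The difference of the age differences was 1.02 ± 0.26 for Lsp1 (unadjusted p 0.000503, edgeR BH 0.574) and 0.46 ± 0.20 for Cd9 (edgeR BH 0.887). Harbi1 stood at -0.38 ± 0.29 in controls, with a difference of -0.97 ± 0.40 (unadjusted p 0.0208, edgeR BH 0.845). No gene passed this test of the difference: edgeR, DESeq2 and limma voom each called 0 of 11985 genes, with 634 at an unadjusted p below 0.05 in edgeR (5.29%).

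In the hemisphere of the same 13 animals edgeR called 6 genes higher (0.049%) and 8 lower (0.0653%) in old surgery mice, 0.114% of 12250 (773 at an unadjusted p below 0.05, 6.31%). Gm42427 (-1.35 ± 0.17, BH 0.000213), Gm42031 (-1.37 ± 0.22, BH 0.00378) and Tmem181b-ps (-1.34 ± 0.20, BH 0.00172) were called by edgeR there. Naalad2 stood at 2.55 ± 0.61, Upk1b at 1.06 ± 0.23, Lsp1 at 0.89 ± 0.24 and Cd9 at 0.69 ± 0.19, without a call. Harbi1 went the other way (0.47 ± 0.31), with hemisphere levels of 5.21 to 6.32 CPM in young and 3.13 to 14.6 CPM in old libraries. The age difference did not differ between the regions in a call for any of 12029 genes by edgeR (435 at an unadjusted p below 0.05, 3.62%), and Harbi1 had a region difference of -1.58 ± 0.45 with an unadjusted p of 0.00274 (edgeR BH 1). DESeq2 called 3 genes and limma voom 1 in that test.

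At 6 h after surgery, in other animals, edgeR called 0 of 13703 genes between the ages (917 at an unadjusted p below 0.05, 6.69%; DESeq2 15, voom 0). Rgs7bp again separated the groups, with 2.67 to 7.91 CPM in young and 0.343 to 1.93 CPM in old libraries (-1.92 ± 0.53). Harbi1 stood at -0.26 ± 0.40. Lsp1 (1.01 ± 0.34), Upk1b (1.01 ± 0.29), Naalad2 (0.94 ± 0.35) and Cd9 (0.36 ± 0.18) had positive values and overlapping groups. The 4 gene models without an established protein had small values at 6 h, with -0.03 ± 0.19 for Gm42427, 0.08 ± 0.29 for Gm42031, -0.23 ± 0.47 for Gm35279 and 0.08 ± 0.28 for Tmem181b-ps. Gm42427 stood at 43.3 to 84.9 CPM in young and 45.97 to 73.8 CPM in old libraries there, where at 48 h the groups had been apart. The test of the difference between 48 h and 6 h gave -1.21 ± 0.25 for Gm42427 (unadjusted p 3.69e-05), -1.42 ± 0.31 for Gm42031 (8.03e-05), -1.77 ± 0.59 for Gm35279 and -1.14 ± 0.33 for Tmem181b-ps. Their edgeR BH values were 0.157, 0.157, 0.216 and 0.159, and edgeR called 0 of 12755 genes in this test (1630 at an unadjusted p below 0.05, 12.8%), voom 0 and DESeq2 130. The tables of the 2 times come from different animals and sorts, so time and animal set cannot be told apart. In 4 libraries of the 6 h table (old surgery replicates 5 and 6, young control replicates 1 and 4) the value 1 made up a share below 0.3 of all values from 1 to 3, and without them edgeR also called 0 genes in both tests.

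**Figure D2:**
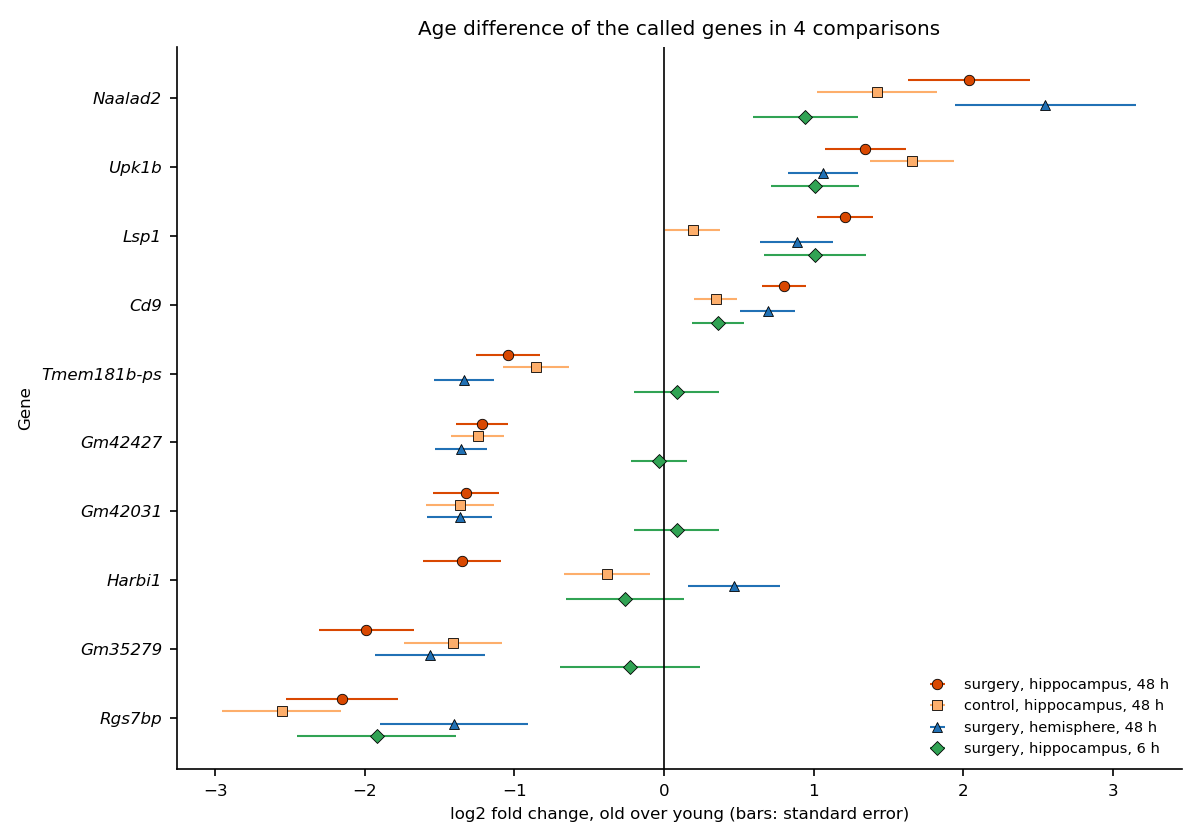
Log2 fold change of old over young for the 10 called genes after surgery in the hippocampus at 48 h (circles), in hippocampal controls at 48 h (squares), after surgery in the hemisphere at 48 h (triangles) and after surgery in the hippocampus at 6 h (diamonds), with standard errors as bars. Gm42427, Gm42031 and Tmem181b-ps lie below -0.8 in the 3 comparisons at 48 h and near 0 at 6 h.

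Genes of the disease-associated programme stood mostly higher in old surgery animals, with few calls. Of 22 tested members of the disease-associated microglia list, 28 genes that microglia raise around amyloid and in ageing, edgeR called 1 higher (Cd9) and 0 lower. A positive value was found for 20 of 22 (against 48.7% of all genes tested), an unadjusted p below 0.05 with a positive value for 11 (against 5.15%), and the list median was 0.50 (against -0.01). Every old library lay above every young one for 5 members, Cd9, Cst7, Clec7a, B2m and Tyrobp (against 0.559% of all genes). DESeq2 called 4 members higher, Cd9, Clec7a, Cst7 and Ccl6 (against 0.226%). Some lists of other functions also leaned to positive values, with 74 of 77 ribosomal protein genes and 16 of 18 glycolysis and hypoxia genes. The nuclear respiratory chain did so less (41 of 74).

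Clec7a, the receptor dectin-1 that binds fungal glucans and marks microglia near plaques, stood at 1.18, 0.952, 1.39 and 0.907 CPM in young and 2.05 to 11.6 CPM (median 7.27) in old libraries. The log2 fold change was 2.57 ± 0.57 and missed the threshold (edgeR BH 0.0711, DESeq2 BH 0.00676). Cst7, cystatin F, an inhibitor of lysosomal cathepsins, stood at 1.57, 0.714, 0.348 and 1.51 CPM in young and 2.26 to 9.40 CPM (median 5.26) in old libraries (2.39 ± 0.53, edgeR BH 0.0711). Ccl6, a chemokine, went from 10.6 ± 3.40 to 22.0 ± 5.67 CPM (1.04 ± 0.25, edgeR BH 0.107). For Apoe, the main lipid carrier of the brain, the young libraries held 97.8, 154, 97.0 and 115 CPM and the old ones 129 to 339 CPM (median 159). The groups overlapped through young replicate 2 (0.78 ± 0.31, edgeR BH 0.385). Ctsb, the lysosomal protease cathepsin B, stood at 0.71 ± 0.24, and Csf1, a growth factor for microglia, at 1.09 ± 0.39. Trem2, the lipid receptor that the full programme needs, stood at 0.10 ± 0.15, and Lpl, lipoprotein lipase, at -0.13 ± 0.30, neither called. In controls the median of the same list was 0.17 (0 called), in the hemisphere 0.52 (0 of 24 called) and at 6 h 0.31 (0 of 24 called). Cst7 stood at 0.15 ± 0.46 in controls, where the difference between surgery and controls was 2.24 ± 0.70 (edgeR BH 0.632). Clec7a stood at 1.25 ± 0.54 in controls, 2.71 ± 0.67 in the hemisphere and 1.53 ± 0.69 at 6 h. Apoe stood at 0.12 ± 0.30, 1.21 ± 0.41 and 1.20 ± 0.43 there, and edgeR called neither gene.

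**Figure D3:**
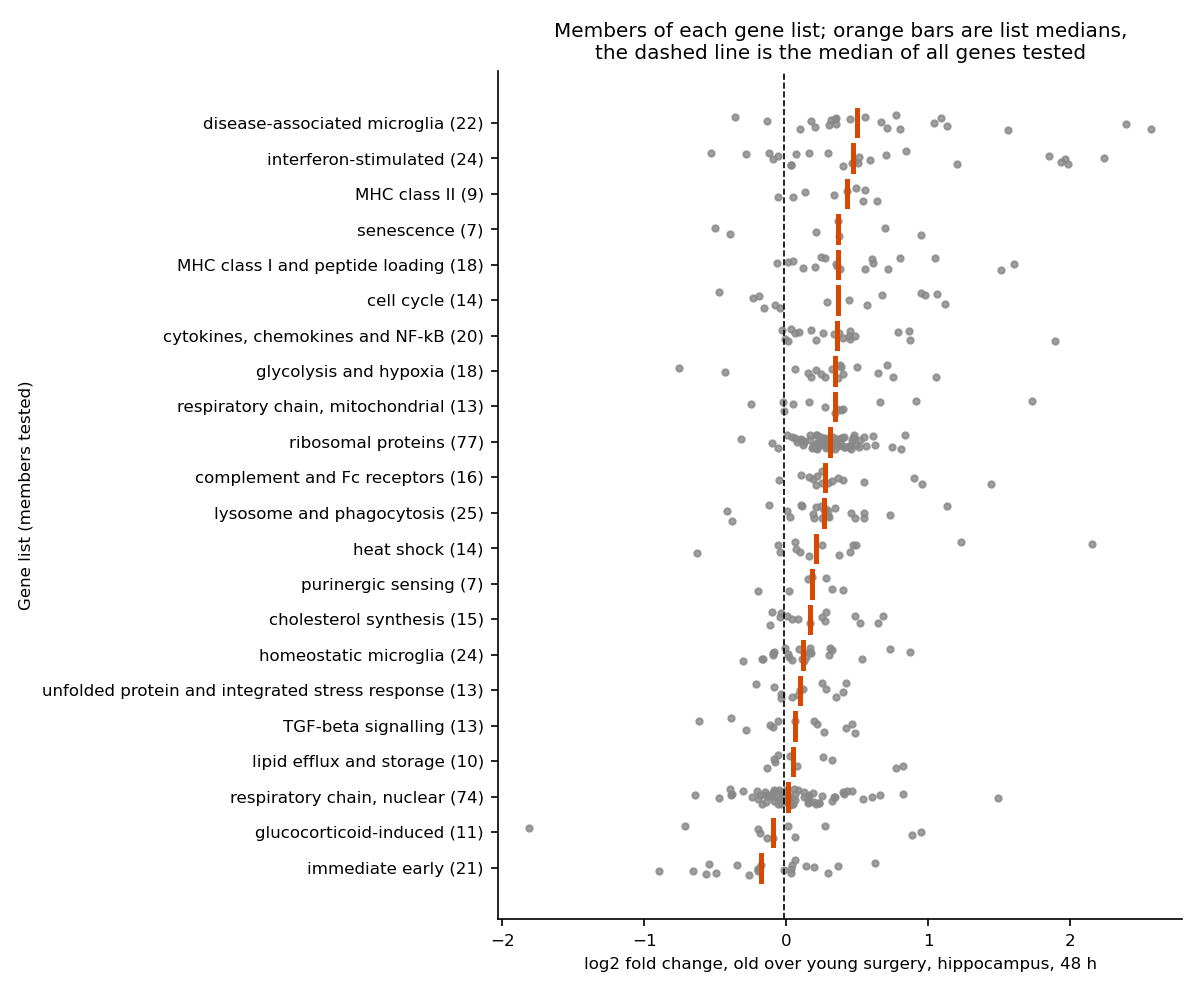
Log2 fold change of old over young surgery microglia (hippocampus, 48 h) for every tested member of 22 gene lists, one grey point per gene. Orange bars are list medians and the dashed line is the median of all 11985 genes; the medians run from -0.18 for immediate early genes to 0.50 for disease-associated microglia.

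MHC class I molecules present peptides from inside the cell, after loading by the TAP transporter, to CD8 T cells. Of 18 tested members of the list edgeR called 0, and 17 had a positive value (48.7% of all genes). An unadjusted p below 0.05 with a positive value was found for 8 (5.15% of all genes), and the median was 0.37. H2-D1, a classical heavy chain, stood at 119, 56.2, 61.2 and 62.9 CPM in young and 89.7 to 241 CPM (median 148) in old libraries. Young replicate 1 lay within the old range and the other 3 below it (1.05 ± 0.24, edgeR BH 0.0906, DESeq2 BH 0.00694). H2-K1, the other classical chain, stood at 127, 107.1, 79.6 and 84.03 CPM in young and 66.3 to 291 CPM (median 175) in old libraries (0.72 ± 0.29, edgeR BH 0.394). B2m, the light chain of all these molecules, stood at 236, 236, 176 and 144 CPM in young and 240 to 385 CPM (median 286) in old libraries, without overlap (0.55 ± 0.17, edgeR BH 0.252). H2-Q6, a non-classical chain, was low (2.02 ± 0.856 against 5.92 ± 4.17 CPM; 1.51 ± 0.47, edgeR BH 0.258). The heavy-chain genes are near-identical in long stretches, so reads may have been split among them. In controls the list median was 0.17 and in the hemisphere 0.36.

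The promoters of the heavy-chain genes H2-D1, H2-K1 and H2-Q6 are shown because these paralogs, none of them called by edgeR, share upstream sequence. RefSeq promoters (GRCm38.p6) run from 250 bases before to 50 after a gene's start. The longest runs of letters that all 3 share are ACAGGGTTCAGGCAAAGTCTT and GGCTGGGGATTCCCCATCTCC, of 21 bases each and in capitals here. The first occurs, on either strand, in 6 of 32851 promoters (0.0183%), all of 5 class I list genes, and the second in 4 (0.0122%), all of these 3 genes. H2-D1 (chr17:35262844-35263143) and H2-Q6 (chr17:35424600-35424899) lie on the plus strand and H2-K1 (chr17:34000298-34000597) on the minus strand, and each is written 5′ to 3′ in the gene's direction.
H2-D1 promoter: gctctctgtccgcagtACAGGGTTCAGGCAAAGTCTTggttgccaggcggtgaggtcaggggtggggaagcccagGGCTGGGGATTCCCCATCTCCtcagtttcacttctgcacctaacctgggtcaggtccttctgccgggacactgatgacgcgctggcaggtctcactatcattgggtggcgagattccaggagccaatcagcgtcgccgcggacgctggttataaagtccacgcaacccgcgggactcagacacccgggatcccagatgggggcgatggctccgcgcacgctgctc
H2-K1 promoter: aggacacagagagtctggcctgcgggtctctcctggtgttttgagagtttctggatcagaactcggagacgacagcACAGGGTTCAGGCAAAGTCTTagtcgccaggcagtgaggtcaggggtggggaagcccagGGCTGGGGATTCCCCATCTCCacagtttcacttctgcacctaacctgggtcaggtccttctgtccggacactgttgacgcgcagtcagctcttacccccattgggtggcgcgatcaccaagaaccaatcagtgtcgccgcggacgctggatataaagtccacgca
H2-Q6 promoter: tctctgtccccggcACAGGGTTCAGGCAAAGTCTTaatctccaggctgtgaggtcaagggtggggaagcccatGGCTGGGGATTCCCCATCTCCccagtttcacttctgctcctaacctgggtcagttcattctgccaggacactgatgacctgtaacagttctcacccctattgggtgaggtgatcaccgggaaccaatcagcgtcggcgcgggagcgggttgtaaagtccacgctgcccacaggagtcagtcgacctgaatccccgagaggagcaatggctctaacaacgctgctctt
The second run starts 175, 115 and 177 bases before the start of H2-D1, H2-K1 and H2-Q6. It holds a palindrome of the kind that NF-kB proteins bind, and a match in a sequence shows no binding.

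MHC class II molecules present peptides from outside the cell to CD4 T cells. Of 9 tested members edgeR called 0, 8 had a positive value (48.7% of all genes), and the median was 0.43, or 0.26 without young replicate 3. In controls 9 of 9 had a positive value (49.8% of all genes), with a median of 0.52 and 0 called. H2-DMa, a chain of the molecule that exchanges peptides on class II, stood at 32.2, 28.1, 21.6 and 24.5 CPM in young and 33.7 to 44.99 CPM (median 38.5) in old libraries, without overlap (0.56 ± 0.15, edgeR BH 0.218, DESeq2 BH 0.0383). The surface chains H2-Ab1 (-0.06 ± 0.52) and H2-Aa (0.34 ± 0.56) and the invariant chain Cd74 (0.49 ± 0.42) overlapped between the groups, and none was called. Cd74 stood at 1.35 ± 0.45 in controls. In the hemisphere of the same animals these 3 stood at 1.92, 2.06 and 1.90, and the tests of the region difference had edgeR BH values of 1.

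Interferon-stimulated genes are switched on by interferons. Of 24 tested members edgeR called 0, and 19 had a positive value (48.7% of all genes). An unadjusted p below 0.05 with a positive value was found for 8 (5.15% of all genes), and the median was 0.47. Ifit3, which binds the IFIT1 sensor of viral RNA, stood at 1.57, 2.38, 0 and 1.51 CPM in young and 3.08 to 20.6 CPM (median 5.66) in old libraries, without overlap (2.24 ± 0.63, edgeR BH 0.218, DESeq2 BH 0.044). Ifitm3, a membrane protein that blocks virus entry, stood at 0.785, 1.19, 0.348 and 1.51 CPM in young and 1.03 to 12.98 CPM (median 2.92) in old libraries (1.96 ± 0.60, edgeR BH 0.254), and edgeR called it in the hemisphere (2.18 ± 0.45, BH 0.0458). Irf7, the factor that amplifies the response, stood at 1.85 ± 0.73, and Stat2, a signal transducer of type I interferon, at -0.53 ± 0.28. Old replicate 1 held the highest value of Ifit3, Ifitm3, Ifi27l2a, Irf7, B2m and H2-D1. Without it the interferon list median was 0.35 and that of class I was 0.35, and within the young range of sort numbers the interferon median was 0.27. In controls the interferon median was 0.21, in the hemisphere 0.73 and at 6 h 0.56.

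The promoter of Ifit3 is shown because it was the member of this list with the smallest p. The letters GAAA followed by GAAA after any 2 bases, the pattern that interferon-activated factors bind, were searched on both strands of the same promoters. They occur in 1131 of 32851 promoters (3.44%), in the promoters of 333 of 8413 tested genes with an entry (3.96%) and in those of 10 of 16 tested list members with one. Capitals mark both matches in Ifit3 (chr19:34583279-34583578, plus strand), which lie on the opposite strand and so read TTTCACTTTC and TTTCAGTTTC here, starting 156 and 122 bases before the gene's start.
Ifit3 promoter: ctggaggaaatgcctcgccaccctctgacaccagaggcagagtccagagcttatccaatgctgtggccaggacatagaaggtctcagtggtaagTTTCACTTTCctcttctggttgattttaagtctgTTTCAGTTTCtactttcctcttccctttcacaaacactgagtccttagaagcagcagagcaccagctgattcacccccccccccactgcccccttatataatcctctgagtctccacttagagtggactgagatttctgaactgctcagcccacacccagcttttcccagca
None of the 7 called genes with a promoter entry held any of these 3 patterns, which says nothing of the factors.

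Cytokine and NF-kB genes drive inflammation. Of 20 tested members edgeR called 0, 18 had a positive value (48.7% of all genes), and the median was 0.36. That median was 0.22 without old replicate 7, 0.23 without old replicate 8 and 0.13 with the replicate number as a block. Tnf, a main inflammatory cytokine of microglia, stood at 11.4, 5.95, 3.48 and 4.23 CPM in young libraries. In the old ones it ran from 3.25 to 37.9 CPM (median 26.9), with old replicate 2 at 9.18 CPM inside the young range and old replicate 3 at 3.25 CPM below it (1.90 ± 0.46, edgeR BH 0.11, DESeq2 BH 0.0102). It stood at 1.63 ± 0.46 in controls. Tlr2, a receptor for bacterial lipoproteins, stood at 0.87 ± 0.27, Ccl3 at 0.86 ± 0.35 and Ccl2 at 0.79 ± 0.33, chemokines that draw leukocytes. Il1b, the cytokine interleukin-1 beta, was under the count filter, with counts of 0, 0, 0 and 2 in the young libraries and 0 to 6 in the old ones. In controls the list median was 0.51 and in the hemisphere 0.16.

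**Figure D4:**
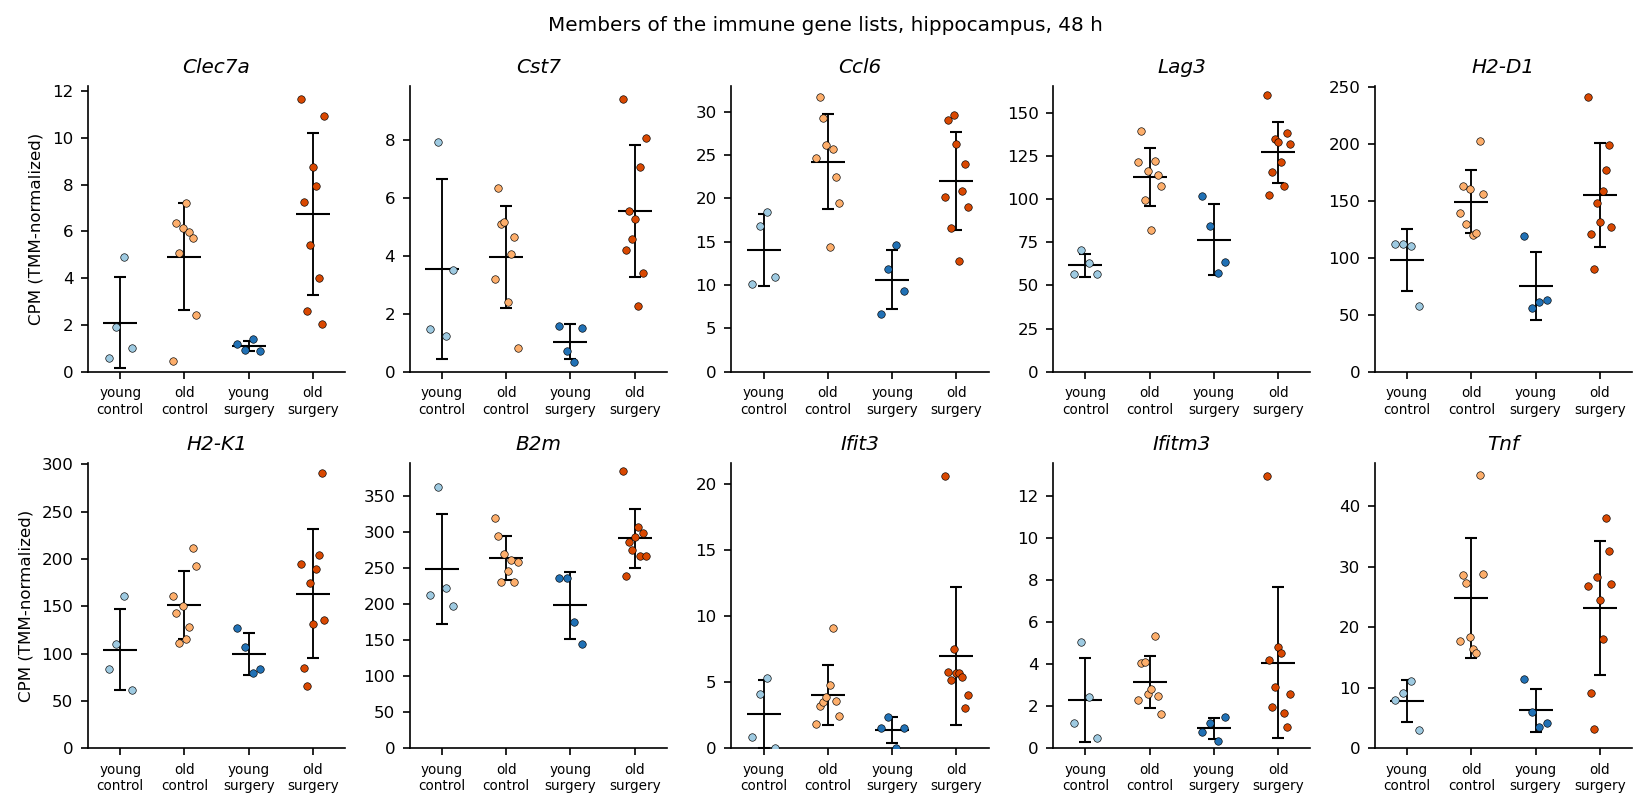
Levels of 10 members of the immune gene lists in the hippocampus at 48 h, in CPM on linear axes from 0. Points are libraries, horizontal bars group means and whiskers 1 SD, for 4 young control, 8 old control, 4 young surgery and 9 old surgery libraries. The old surgery libraries all lie above the young ones for Clec7a, Cst7, Lag3, B2m and Ifit3 and overlap with them for Ccl6, H2-D1, H2-K1, Ifitm3 and Tnf.

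Of 16 complement and Fc receptor genes, which tag and take up debris, 15 had a positive value (48.7% of all genes) and 0 were called (median 0.27). C5ar1, the receptor for the complement fragment C5a, stood at 0.90 ± 0.35 and Fcer1g, the signalling chain of Fc receptors, at 0.25 ± 0.12. Of 25 lysosome and phagocytosis genes 22 were positive (48.7% of all genes) and 0 called (median 0.27, or 0.16 without young replicate 3). Lyz2, lysozyme, stood at 41.5 ± 16.2 CPM in young and 68.9 ± 10.3 CPM in old libraries without overlap (0.73 ± 0.26, edgeR BH 0.347), and Ctss, cathepsin S, at 0.46 ± 0.17. At 6 h the medians of these lists were 0.01 and -0.03.

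Most ribosomal protein genes, the building blocks of the translation machinery, had small positive values. Of 77 tested ribosomal protein genes 74 had a positive value (48.7% of all genes), 25 had an unadjusted p below 0.05 with a positive value (5.15% of all genes), and 0 were called. Their median was 0.31, with every old library above every young one for 8 of them (0.559% of all genes). Of 18 glycolysis and hypoxia genes 16 were positive (48.7% of all genes) and 0 called (median 0.34, highest value 1.06). Among them Ldha, lactate dehydrogenase A, stood at 27.2 ± 3.78 CPM in young and 42.6 ± 6.06 CPM in old libraries (0.64 ± 0.19, edgeR BH 0.243). Of 13 respiratory chain genes of the mitochondrial genome 10 were positive (median 0.34), beside 41 of 74 nuclear ones (median 0.01). The mitochondrial share of counts, given above, was higher in the old libraries, and its part in this was not tested. Counts left outside the largest models averaged 620007 in old and 747511 in young libraries, with overlapping ranges (exact permutation p = 0.0909, BH 0.136). With them as a covariate, an alternative chosen after seeing the data, the ribosomal median was 0.31 and the glycolysis median 0.35, and edgeR called 7 genes in all. In controls the ribosomal median was 0.06, with 45 of 77 positive (49.8% of all genes), and after surgery in the hemisphere it was 0.29.

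The glucocorticoid-induced list had a median of -0.09, with 5 of 11 tested members positive and 0 called. It ran from -0.25 to 0.13 over the other settings, positive with sort number as a covariate (0.13) and without young replicate 1 (0.13) or 2 (0.075), and it gives no direction. Fkbp5, a co-chaperone that lowers hormone binding by the glucocorticoid receptor, stood at 25.8 ± 9.09 CPM in young and 15.8 ± 5.07 CPM in old libraries (-0.71 ± 0.28, edgeR BH 0.385). Tsc22d3, which encodes the glucocorticoid-induced leucine zipper, stood at 49.6 ± 10.5 and 43.2 ± 22.7 CPM (-0.20 ± 0.33). Cdkn1a, which encodes the cell cycle inhibitor p21, stood at 11.3 ± 3.83 CPM in young and 22.0 ± 7.05 CPM in old libraries (0.95 ± 0.29, edgeR BH 0.254), and 8 of 9 old libraries lay above all young ones. Of 21 immediate early genes, induced within minutes of a stimulus and many of them for transcription factors, 9 were positive and 0 called (median -0.18). That median ran from -0.65 to 0.15 over the other settings, positive with sort number as a covariate (0.084) and within the young range of sort numbers (0.15), and it gives no direction. Jund, a subunit of AP-1, was the one with groups apart, at 9.82 to 13.3 CPM in young and 4.48 to 8.56 CPM in old libraries (-0.90 ± 0.25, edgeR BH 0.218). Hsph1, a heat shock co-chaperone, stood at 2.16 ± 0.53 (edgeR BH 0.122, DESeq2 BH 0.0181), the highest value of 14 tested heat shock genes. Of these 11 were positive (48.7% of all genes) and 0 called, with a median of 0.21 and a lowest value of -0.63. The lists not yet named, for cholesterol synthesis, lipid efflux, TGF-beta signalling, cell cycle, senescence, unfolded protein response and purinergic sensing, had 0 called members and medians from 0.05 to 0.37. Those of lipid efflux, TGF-beta signalling and the unfolded protein response changed sign in some settings (lowest -0.0041, -0.014 and -0.10), as did that of the nuclear respiratory chain (lowest -0.021).

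Summed levels of markers of other cells overlapped between the ages in every list. They ran from 24.1 to 33.8 CPM in old and 22.0 to 36.2 CPM in young libraries for 14 monocyte markers, and from 116 to 204 and 134 to 222 CPM for 12 markers of border-associated macrophages, 93.2% of it Stab1. For 13 neutrophil markers they ran from 128 to 224 and 98.04 to 206 CPM, mostly Csf3r. The sum of 17 neuronal markers was 8.30 to 24.6 CPM in old and 17.7 to 30.5 CPM in young libraries, and that of 11 astrocyte markers 30.5 to 69.9 and 48.7 to 71.6 CPM. Oligodendrocyte markers summed to 274 to 413 CPM in old and 227 to 389 CPM in young libraries, 89.8% of it Trf. Choroid plexus and ependymal markers ran from 6.85 to 1227 CPM in old and 66.4 to 778 CPM in young libraries, 76.6% of it Ttr. In such sorted bulk samples fewer cells of a type and less RNA per cell cannot be told apart. Their part in the results above was not tested.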

How the data were processed

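The authors deposited estimated counts per Ensembl gene model, already whole, in a table for each region and time whose columns each hold a library. Genome build mm10, R 4.2.1 and DESeq2 1.36.0 stand in the submitters' processing notes. The aligner and the counter are, in the sources used here, not given. Of 54532 identifiers 54495 matched GENCODE M21 (GRCm38, the same build), the source of symbols and coordinates (1-based).

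Genes were tested with edgeR 4.0.16 in R 4.3.3 (quasi-likelihood F-test, TMM, robust dispersion, filterByExpr at a minimum count of 10), with all 4 groups of a table in one fit and BH over all genes tested. Hippocampus and hemisphere libraries with the same sort number in their names were taken to come from one animal, which was a block in the region test. CPM use the counts of tested genes times the TMM factor as the total. Named genes were the 12 largest called changes in each direction with an average log2 CPM no lower than 4 and without predicted, Rik or pseudogene symbols, up to 4 called members of each of 37 lists, and 12 genes always named. All others were picked after their values were seen. The members and lists were chosen with earlier results of these data known. DESeq2 1.42.0, limma 3.58.1 (voom), other scaling, filters and leave-one-out refits were the alternatives. The fit was tested on simulated counts. The labels do not say how animals were assigned, so p-values measure the spread between these libraries only. Some items are not reported here.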

Additional observations from a re-analysis of the deposited data

Results flagged for a closer look

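A library stood apart from the others of its group by Dixon's test at the 95% level in 5 of 56 groups of values tested, and chance flags about 1 in 20. Naalad2 was at 21.0 CPM in old surgery replicate 2, above the other old libraries. Ifitm3 was at 12.98 CPM in old surgery replicate 1, the library that also held the highest Ifit3. Il1b was at 0.605 CPM in young surgery replicate 4, which was 2 counts beside 0 in the other young libraries. P2ry12 was at 693 CPM in young surgery replicate 1, above the other 3 young libraries. Young surgery replicate 2 had the largest total, 3778939 counts.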

How the results depend on the processing

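Outside the largest gene models each of the 13 libraries held under 1e+06 counts, and what depth keeps from being called was not tested. Counts of called genes are given in the order old against young after surgery, the same in controls, and the same in the hemisphere (main 10, 10 and 14). DESeq2 called 40, 22 and 60, and 3, 15 and 130 for the region difference, for 6 h and for the time difference, where edgeR called 0 each. With only the sort numbers of the young range the counts were 0, 3 and 0. With limma voom the hemisphere gave 8 and the region difference 1. Sort number as a covariate gave 7 after surgery in the hippocampus, 6 of them among the 10, and 6 in the hemisphere and 2 at 6 h. Sort number goes with age, since 6 of 9 old animals lie above the young range. Without the filter on low counts the region difference gave 54 and 6 h gave 3. Controls fitted alone gave 0.

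Leaving out 1 library or animal gave 3 to 15, 7 to 23 and 3 to 18 calls, 0 to 3 at 6 h, 0 to 2 for the time difference, and 0 for the surgery-control and region differences. Controls gave 23 without young replicate 3. The hemisphere gave 3 without young replicate 2, 7 without young replicate 3, 8 without young replicate 4, 7 without old replicate 1, 5 without old replicate 5 or 8, and 6 without old replicate 6. The 6 h comparison gave 3 without old replicate 2. The time difference gave 2 without old replicate 7 of 6 h and 1 without young replicate 1 or old replicate 9 of 48 h. The age difference of P2ry12 turned to -0.0096 with sort number, to -0.068 with depth as a covariate (an alternative chosen after seeing the data), and to -0.0092, -0.012 and -0.0068 without young replicate 3, young replicate 4 or old replicate 8. That of Tsc22d3 turned to 0.12 with the young range of sort numbers.

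The replicate numbers did not pair the animals: same-numbered old and young libraries correlated at -0.0077, -0.064, 0.18 and -0.11, and only number 3 correlated best with its own. With the replicate block the counts were 0, 0 and 6. The region test had another block, the animal (by sort number), and without that block it gave 1. The cause of these changes was not tested.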
